A study of Mus musculus with 2 samples.

Results

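Tubulin isotype genes were examined in RNA-seq of dorsal root ganglion (DRG) neuron preparations. The set holds 10 genes of the 24411 in the files, 4 encoding alpha-tubulin (Tuba1a, Tuba1b, Tuba1c and Tuba4a) and 6 encoding beta-tubulin (Tubb2a, Tubb2b, Tubb3, Tubb4a, Tubb5 and Tubb6). Members were taken by gene symbol alone, and each had 1 RefSeq transcript row, so its gene total and its transcript value are the same number. All 10 were above 3 TPM, the detection level used here, in both libraries.

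There were 2 libraries, and each was made from the pooled preparations of 10 male C57BL/6J mice, 6 to 8 weeks old when obtained. One group was injected intraperitoneally with 50% alum, an aluminium salt adjuvant. The other received 50% alum with 100 µg of KLH (keyhole limpet hemocyanin), a protein antigen from a mollusc. Both groups were injected on day 0 and day 14, and thoracic and lumbar DRGs were taken on day 28. Neurons were enriched by digestion and a BSA cushion, and B lymphocytes were removed with beads. The deposited label of the control library calls it naïve as well as alum alone, and it is treated here as alum-injected, following the methods. With 1 pooled library per group there is no spread between mice, so no difference has a replicate check and no p-value was computed. Levels are given as TPM, a share of the library corrected for transcript length and scaled to the same total in each. They can be compared between genes, but the files do not give the read depth behind each value.

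Microtubules are hollow polymers of alpha- and beta-tubulin dimers. They give axons their shape and are the tracks of axonal transport, which in sensory neurons runs between the ganglion and targets such as the skin and viscera. Mammals encode several alpha and beta isotypes in separate genes. The isotypes share most of their sequence and differ chiefly in a glutamate-rich tail at the C-terminal end, the part that enzymes modify and that many microtubule-binding proteins contact.

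The coding ends below are shown because the tail is where isotypes differ, and because closely matching genes also limit how reads can be told apart. They are given for 6 of the members. Each line gives the last 60 coding bases and the stop codon, 5′ to 3′ on the strand of the gene, with the glutamate codons (GAA and GAG) in capitals, read from GENCODE M21 transcripts (GRCm38).
Tuba4a, chr1:75215622-75215684, minus strand: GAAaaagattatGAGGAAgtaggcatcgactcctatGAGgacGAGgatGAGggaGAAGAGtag
Tubb2a, chr13:34074468-34074530, minus strand: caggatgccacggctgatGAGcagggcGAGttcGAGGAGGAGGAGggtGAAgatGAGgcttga
Tubb2b, chr13:34127471-34127533, minus strand: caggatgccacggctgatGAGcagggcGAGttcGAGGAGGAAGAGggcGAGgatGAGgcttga
Tubb3, chr8:123421620-123421682, plus strand: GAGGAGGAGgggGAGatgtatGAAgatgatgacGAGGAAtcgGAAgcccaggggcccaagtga
Tubb4a, chr17:57080690-57080752, minus strand: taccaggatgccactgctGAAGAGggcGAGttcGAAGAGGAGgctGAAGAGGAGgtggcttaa
Tubb5, chr17:35834982-35835044, minus strand: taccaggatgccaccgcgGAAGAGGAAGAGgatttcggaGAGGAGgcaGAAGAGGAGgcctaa

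Of the 20 codons shown per gene, 8 or 9 are glutamate codons. Tuba4a ends in the glutamate codon GAG with no codon after it for tyrosine, the residue that tubulin tyrosine ligase adds to the tail of alpha-tubulin and that the vasohibins remove. The ends of Tubb2a and Tubb2b differ at 3 of 63 bases. These changes fall in 3 codons and leave the encoded residues the same, so this pair does not differ in the tail shown. The ends of Tubb3 and Tubb2a differ at 36 of 63 bases when set side by side without gaps.

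All 10 members have 4 exons in the annotated transcript. Tuba1a (chromosome 15, 98949837 to 98953703), Tuba1b (98931425 to 98934565) and Tuba1c (99029891 to 99038110) lie close together on 1 chromosome, and Tubb2a (chromosome 13, 34074274 to 34078007) and Tubb2b (34126748 to 34130354) lie side by side on another. Over the whole coding sequence, identity reached 98.3% between Tuba1a and Tuba1b, 97.9% between Tuba1b and Tuba1c and 96.5% between Tubb2a and Tubb2b. The median identity was 91.2% over the 6 alpha pairs and 83.7% over the 15 beta pairs.

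Reads from such genes can be shared in the quantification. To describe this, each transcript was divided into overlapping words of 31 bases, and the words that also occur in another gene of the files, on either strand, were counted. In the coding part the shared words made up 86.9% for Tuba1a, 93.3% for Tuba1b, 92.9% for Tuba1c, 67.6% for Tubb2a and 75.6% for Tubb2b. The same share was between 2.69% and 4.73% for Tubb3, Tubb4a, Tubb5 and Tubb6. After the stop codon, 0% of the words of Tuba1a, Tuba1b, Tuba1c, Tubb2a and Tubb2b were shared, so these regions can tell them apart. The annotated Tuba4a transcript differs from this pattern, with 1.37% of its coding words shared but 98.9% of those after the stop codon. Most of these lie in Stk16, on the opposite strand, and reads of the 2 genes can be separated there only by strand. The library kit kept strand, but whether the quantification used it is not given in the sources used here. The split of TPM among Tuba1a, Tuba1b and Tuba1c, the split between Tubb2a and Tubb2b, and the level of Tuba4a are therefore less certain than the levels of Tubb3, Tubb4a, Tubb5 and Tubb6.

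**Figure D1:**
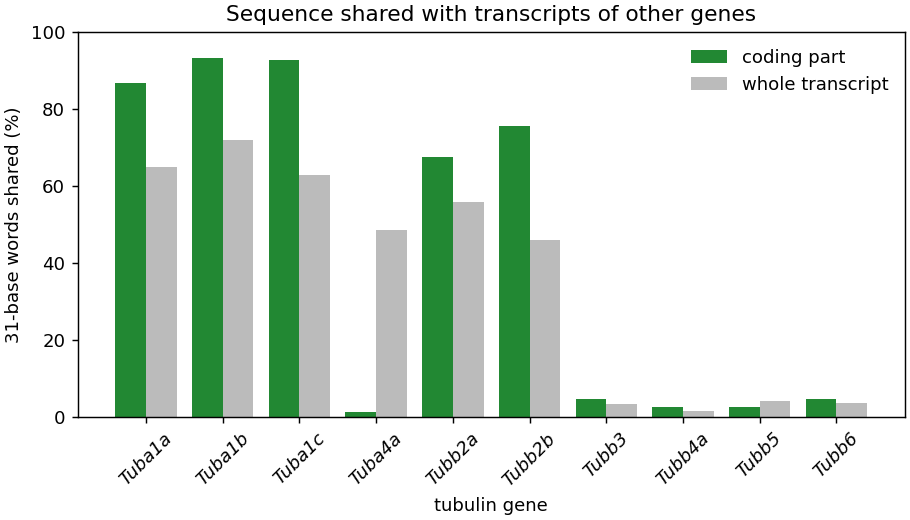
Share of the 31-base words of each member that also occur in transcripts of other genes in the files, in percent, for the coding part (green) and the whole transcript (grey). The coding shares of Tuba1a, Tuba1b and Tuba1c lie between 86.9% and 93.3%, and those of Tubb3, Tubb4a, Tubb5 and Tubb6 do not exceed 4.73%.

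Tuba1a, the main alpha-tubulin of developing and regrowing axons, stood far above the other members in both pools. Its level was 3543.97 TPM in the alum pool and 2972.90 TPM in the alum + KLH pool, rank 12 and rank 17 among the 24411 genes. Tuba1b, an alpha isotype found in most tissues, was the second of the alpha members at 575.3 and 495.2 TPM. Within each pool the Tuba1a value was 6.16 and 6.00 times that of Tuba1b. Tuba4a, the isotype whose gene encodes no terminal tyrosine, was at 87.9 and 87.8 TPM. Tuba1c, another gene of the same cluster, was the lowest of the set at 9.33 and 8.34 TPM.

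Tubb3, the class III isotype used as a neuronal marker, was the highest beta member at 685.1 TPM in the alum pool and 639.9 TPM in the alum + KLH pool. Tubb2a, a neuronal class II isotype, was at 362.6 and 344.9 TPM. Its neighbour Tubb2b, known for its part in neuronal migration, was at 259.1 and 189.9 TPM. Tubb5, a widely expressed isotype, was at 270.2 and 253.4 TPM and thus level with Tubb2b in the alum pool but above it in the alum + KLH pool. Tubb4a, a class IV isotype of neurons and myelinating glia, was at 98.1 and 74.0 TPM. Tubb6, a class V isotype of many non-neuronal tissues, was at 15.1 and 12.6 TPM.

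The order of levels from Tuba1a through Tubb3, Tuba1b, Tubb2a, Tubb5 and Tubb2b was the same in both pools, as was the order of Tubb6 and Tuba1c at the low end. Tubb4a was above Tuba4a in the alum pool and below it in the alum + KLH pool. On the log2 scale the gap between Tubb5 and Tubb2b was 0.06 in the alum pool and 0.42 in the alum + KLH pool. The gap between Tubb4a and Tuba4a was 0.16 in the alum pool. Both gaps in the alum pool are within the difference that Tubb2b and Tubb4a themselves showed between the libraries, so these neighbours cannot be ranked. The gaps between all other neighbours were at least 0.25 on the log2 scale.

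**Figure D2:**
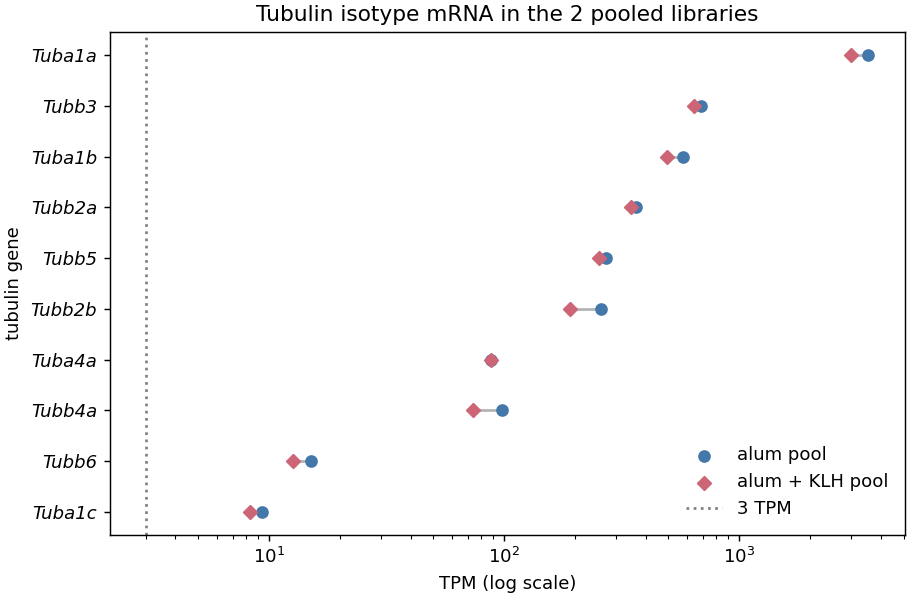
Level of each member in the alum pool (blue circles) and the alum + KLH pool (red diamonds), in TPM on a log scale, with 1 pooled library per group and a dotted line at 3 TPM. The members span from 8.34 TPM for Tuba1c to 3543.97 TPM for Tuba1a, and the symbols of the 2 pools lie close together for each gene.

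Together the 10 genes accounted for 0.591% of all TPM in the alum pool and 0.508% in the alum + KLH pool. The 4 alpha members summed to 4216.4 and 3564.2 TPM, and the 6 beta members to 1690.1 and 1514.8 TPM. Alpha TPM was thus 2.49 and 2.35 times beta TPM. This ratio depends on which genes are counted, since Tubb4b, a widely expressed class IV isotype outside the set, was itself at 306.4 and 261.5 TPM. With it and the other alpha and beta genes of the files included, the ratio was 2.11 and 2.01. Tuba1a made up 84.1% of alpha TPM in the alum pool and 83.4% in the alum + KLH pool. Tuba1b made up 13.6% and 13.9%. Beta TPM was spread over more genes. Tubb3 held 40.5% and 42.2% of it, Tubb2a 21.5% and 22.8%, Tubb5 16.0% and 16.7%, Tubb2b 15.3% and 12.5%, and Tubb4a 5.80% and 4.89%. The make-up of each family thus differed by less than 3 percentage points between the pools, and the widest difference was that of Tubb2b.

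**Figure D3:**
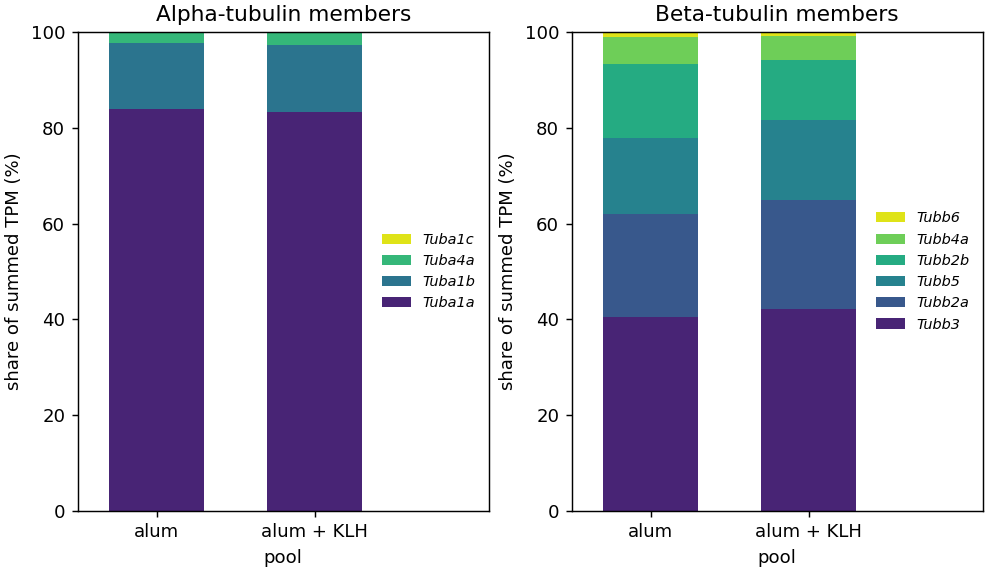
Share of each isotype in the summed TPM of the 4 alpha members (left) and the 6 beta members (right), in percent, in each pool. Tuba1a fills 84.1% and 83.4% of the alpha bars, and Tubb3, at 40.5% and 42.2%, is the largest part of the beta bars.

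Tuba1a and Tubb3 were compared with the genes closest to them in level over the 2 libraries. The closest to Tuba1a by distance in log2(TPM + 1) were Ndufa4 (0.17), Tpt1 (0.19) and Rtn3 (0.20). For Tubb3 they were Hspd1 (0.031), Psmc6 (0.048) and Hsp90b1 (0.056). With 2 values per gene this likeness covers the level alone.

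For the comparison of the groups, 1 TPM was added to each value, and the log2 ratio was formed as alum + KLH over alum. The added TPM understates the ratio of low genes. All 10 members had the lower value in the alum + KLH pool as deposited, but 9 did once the median ratio over all genes was set to 1 (all but Tuba4a), 8 relative to a list of neuronal genes (all but Tuba4a and Tubb2a) and 6 relative to genes of like GC content (all but Tuba1c, Tuba4a, Tubb2a and Tubb3). Across the 11648 genes above 3 TPM in at least 1 pool, 56.4% (6569) were lower in the alum + KLH pool as deposited. Across the 2155 with a mean of at least 100 TPM, 43.7% were. The 3 TPM filter was applied again after each rescaling, so the totals can differ from 11648. Over all genes the count of lower values was 5900 with the median ratio set to 1 and 4018 relative to the neuronal list. Relative to genes of like GC content it was 5708 of 11422, a share that subtracting the bin medians fixes near the middle. The median log2 ratio was -0.18 over the members and -0.02 over all 11648 genes.

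Tubb2b showed the widest difference, with a log2 ratio of -0.45, or 26.7% less TPM in the alum + KLH pool, though its split from Tubb2a is uncertain. Of the 2155 genes with a mean of at least 100 TPM, 15 had a ratio as low or lower, Tubb2b included. Tubb4a followed at -0.40, or 24.5% less. At or below that ratio were 3.75% of the 9493 genes with a mean under 100 TPM, and 7.9% of the 1583 of like GC content among them. Tubb2b and Tubb4a were the 2 of 10 members that were at least 1.2-fold lower in the alum + KLH pool as deposited. Relative to genes of like GC content Tubb2b alone was. The background share was 8.41% of all 11648 genes and 2.74% of those with a mean of at least 100 TPM. No member (0 of 10) was at least 1.2-fold higher, against 3.2% and 1.21% of genes in the same groups. Relative to genes of like GC content, 466 of 11422 genes were at least 1.2-fold lower and 460 at least 1.2-fold higher. No member was 2-fold apart, as 1.64% of the 11648 genes were.

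Tuba1a had a log2 ratio of -0.25, and 65 of the 2155 genes with a mean of at least 100 TPM, itself included, were as low or lower. In TPM its difference of -571 made up most of the -828 of the whole set. Tuba1b was at -0.22, with 4.04% of that class at or below it, but 25.8% of the 89 genes of like GC content in that class. Tubb6 was at -0.24 and Tuba1c at -0.15, but in their lower abundance class 11.7% and 22.6% of genes reached these ratios. The ratios of Tubb3 (-0.10), Tubb5 (-0.09) and Tubb2a (-0.07) were within the SD of 0.16 of genes with a mean of at least 100 TPM. That of Tuba4a was -0.0013. Tubb2a and Tubb2b thus differed from each other in the comparison. The split of reads between them is uncertain, since 67.6% and 75.6% of their coding words are shared. The part of read assignment in this difference was not tested. Tubb2a was 1.40 times Tubb2b in the alum pool and 1.82 times in the alum + KLH pool.

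**Figure D4:**
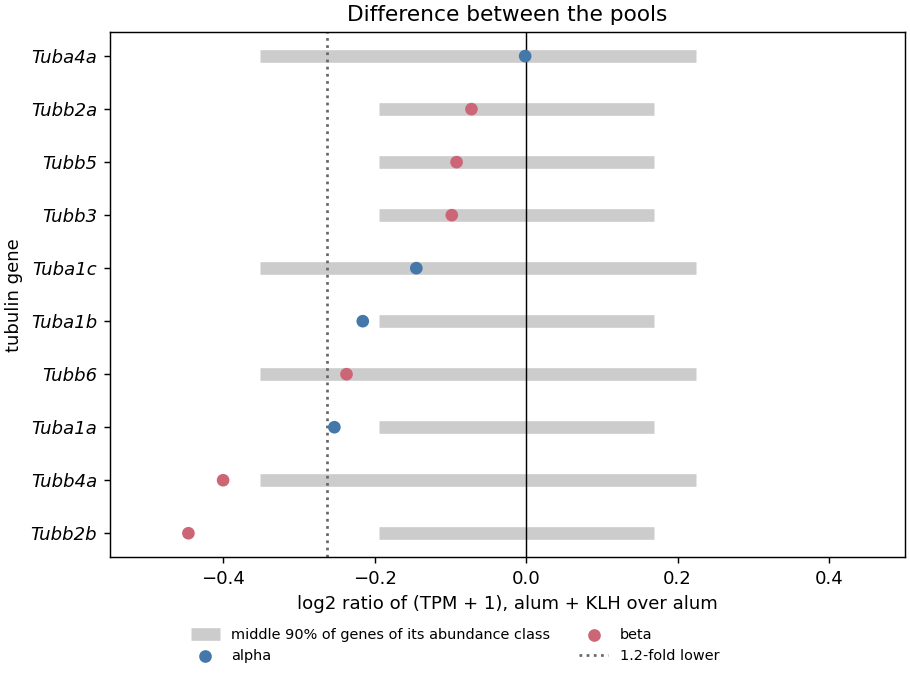
Log2 ratio of (TPM + 1), alum + KLH over alum, for each member (points, blue for alpha and red for beta), with 1 library per group. Grey bars span the middle 90% of genes of the same abundance class (mean of at least 100 TPM, or a lower mean with more than 3 TPM in at least 1 pool). All 10 points lie below 0 as deposited, where 56.4% of all 11648 genes do. Relative to genes of like GC content 6 of 10 members do, beside 5708 of 11422 genes. Tubb2b, Tubb4a, Tuba1a and Tuba1b lie below their bars.

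The difference between the libraries moved with the base composition of the transcripts. Among genes with a mean of at least 100 TPM, the median log2 ratio went from 0.086 for 183 genes with a GC content of 35 to 40% to -0.11 for 89 genes with 55 to 60%. The tubulin transcripts are GC-rich, with 51.2% to 57.9% GC and a median of 55.2%, compared with 48.7% for all genes above 3 TPM. Against the median of genes in the same GC bin and abundance class, Tubb2b stood at -0.39, Tubb4a at -0.24 and Tuba1a at -0.20 on the log2 scale. In the bin of 370 genes that holds both Tubb2b and Tuba1a, 4 genes were at or below Tubb2b and 23 at or below Tuba1a, each counting itself. Of the 1583 genes in the bin of Tubb4a, 125 were at or below Tubb4a. Tuba1b was at -0.11, with 23 of the 89 genes of its bin at or below it. Tubb6 was at -0.08 and Tubb5 at -0.04. Tuba1c (0.01), Tubb3 (0.01), Tubb2a (0.04) and Tuba4a (0.06) were then above the median of their bins. The part of GC content in the tubulin differences was not tested.

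**Figure D5:**
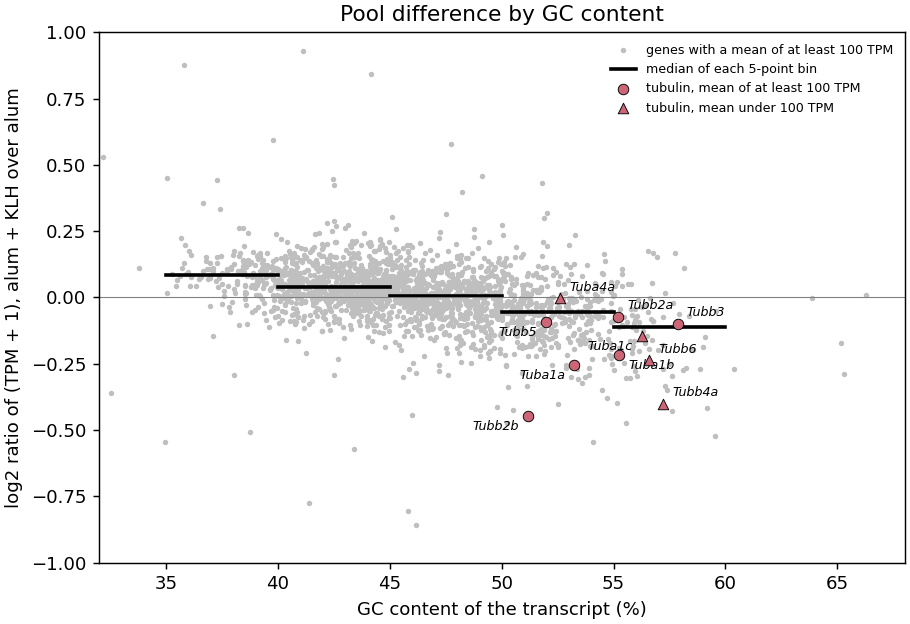
Log2 ratio of (TPM + 1) between the pools against the GC content of the transcript in percent, for 2124 genes with a mean of at least 100 TPM (grey; 6 more lie outside the axes), with the median of each 5-point bin as a black line. Tubulin members are red circles (mean of at least 100 TPM) or triangles (lower mean). The line applies to the circles, of which Tubb2b, Tuba1a, Tuba1b and Tubb5 lie below the line of their bin and Tubb3 and Tubb2a just above theirs.

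The cell types of the preparations were read from marker lists. The 10 neuronal markers were all above 3 TPM in both pools and summed to 14711.6 and 14591.2 TPM, with a median log2 ratio of -0.05, and 8 of 10 had the lower value in the alum + KLH pool as deposited, against 5 of the 9 that could be set against genes of like GC content. Schwann cell markers, 6 of 10 above 3 TPM in both pools, summed to 2197.1 and 2160.0 TPM. Most of this sum came from Pmp22 and S100b, while other markers of the list were under 3 TPM in both pools. The sum is therefore not a measure of Schwann cell content. Satellite glia markers, with 8 of 8 above 3 TPM, summed to 1577.7 and 1460.1 TPM, and all 8 had the lower value in the alum + KLH pool as deposited and relative to genes of like GC content, but 6 did after rescaling by the median ratio. The share of all 11648 genes with the lower value as deposited was 56.4%. Relative to genes of like GC content 5708 of 11422 genes were lower. After rescaling by the median ratio, 5900 of the genes then above 3 TPM in at least 1 pool were lower. The highest markers were Nefl (5259.3 and 5048.0 TPM), Snap25 (4056.6 and 4278.5 TPM) and Stmn2 for neurons, Pmp22 (1062.2 and 1020.7 TPM) and S100b (683.5 and 711.5 TPM) for Schwann cells, and Fabp7 (952.6 and 888.1 TPM), Glul (302.3 and 292.7 TPM) and Apoe for satellite glia. At least 1.2-fold lower were 2 of the 10 neuronal markers, 1 of the 7 Schwann cell markers above 3 TPM in at least 1 pool and 1 of the 8 satellite glia markers, beside 8.41% of all 11648 genes. Among these, named after their values were seen, were Rbfox3 (60.8 and 44.6 TPM) and Prph (243.6 and 201.8 TPM) of the neuronal list. Apoe (131.9 and 91.5 TPM) of the satellite glia list was also among them, named likewise. These counts are as deposited. The neuronal count was 1 of 10 after rescaling by the median ratio and 1 of 9 relative to genes of like GC content. The Schwann cell and satellite glia counts stayed the same. Over all genes the counts were 854 after that rescaling and 466 of 11422 relative to genes of like GC content. Fibroblast markers summed to 88.1 and 88.4 TPM, endothelial markers to 12.8 and 9.02 TPM, macrophage markers, 0 of 7 above 3 TPM, to 7.39 and 6.78 TPM and markers of dividing cells to 11.2 and 11.4 TPM. Several of these cell types also express tubulin isotypes, and in pooled RNA fewer cells of a type cannot be told apart from less RNA per cell. The part of these cell types in the tubulin differences was not tested.

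The other tubulin genes were mostly low. The testis-type alpha genes Tuba3a and Tuba3b were listed at 0 in both pools. Tuba8 was at 0.61 and 0.60 TPM, Tubal3 at 0.12 and 0.11 TPM, and Tubb1, the isotype of platelets, at 0.23 and 0.17 TPM. Tubb4b had a log2 ratio of -0.23 as deposited, and its place among genes of like GC content is not given here. Gamma-tubulin, which nucleates microtubules, was represented by Tubg1 at 6.06 and 5.56 TPM and Tubg2 at 8.43 and 7.44 TPM. The centriolar tubulins Tubd1 (4.26 and 5.16 TPM) and Tube1 (4.03 and 5.42 TPM) had the higher value in the alum + KLH pool, with log2 ratios of 0.23 and 0.35. Both lie close to the detection level of 3 TPM. Of the 5 other tubulins above 3 TPM, 1 (Tube1) was at least 1.2-fold higher, beside 3.2% of all 11648 genes.

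Genes that act on tubulin were described by pathway lists, counted among those above 3 TPM in at least 1 pool. The counts stand beside the background of 8.41% of all genes at least 1.2-fold lower and 3.2% at least 1.2-fold higher. Of 21 folding genes, which include the CCT chaperonin, prefoldin and the tubulin cofactors, 1 was at least 1.2-fold lower and 0 higher. That gene was Pfdn2 (95.8 and 77.5 TPM), named here after its value was seen. Tbca, the cofactor that binds beta-tubulin, was the highest at 1191.9 and 1288.5 TPM. Cct8, a chaperonin subunit, was at 613.7 and 598.4 TPM, and Vbp1, a prefoldin subunit, at 588.5 and 616.3 TPM. The list had a median log2 ratio of -0.05.

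Of 14 genes for enzymes of the tubulin tail and of acetylation, 0 were past 1.2-fold in either direction. Ttll7, a ligase that adds glutamate chains to beta-tubulin, was at 1546.5 and 1612.4 TPM. Agtpbp1, which removes glutamates, was at 402.4 and 391.8 TPM, and Ttl, the tubulin tyrosine ligase, at 283.9 and 258.7 TPM. Ttc5, which recognises newly made tubulin and starts the decay of its mRNA when free dimers are plentiful, was at 24.6 TPM in both pools. Its partners Scaper (56.7 and 52.7 TPM) and Cnot11 (30.6 and 30.2 TPM) were also within 1.2-fold.

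Among 18 genes of proteins that bind the microtubule lattice, Map1b was the highest at 2591.4 and 2532.8 TPM, followed by Map7d2 at 1017.4 and 1031.8 TPM and Map4 at 779.0 and 807.8 TPM. In this list 2 of 18 genes were at least 1.2-fold lower, beside 8.41% of all genes, and both are named after their values were seen. They were Tppp3 (157.9 and 118.1 TPM) and Map7d1 (19.4 and 15.5 TPM). Among 17 genes of microtubule dynamics and severing, Stmn2, a tubulin-binding protein of growing axons that also stands in the neuronal list, was at 2495.6 and 2445.7 TPM, Stmn1 at 751.1 and 704.3 TPM and Stmn3 at 379.2 and 383.7 TPM. Here Clip2 (6.30 and 5.07 TPM) and Clip3 (194.6 and 160.9 TPM) were at least 1.2-fold lower, 2 of 17, again named after their values were seen. None of the 8 genes of the gamma-tubulin ring complex was past 1.2-fold, and their median log2 ratio was 0.04. Mzt1 (186.6 and 210.7 TPM), Tubgcp4 (73.2 and 77.0 TPM) and Tubgcp5 (42.7 and 43.2 TPM) were the highest of them. Medians of the lists for folding, lattice binding and dynamics lay between -0.06 and -0.05, and that of the tail enzymes was -0.13, beside -0.18 for the 10 isotype genes.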

How the data were processed

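RNA was sequenced from 1 pooled DRG neuron preparation per group. The authors demultiplexed with bcl2fastq, trimmed with cutadapt and quantified stranded, paired-end mRNA reads with kallisto on annotated mm10 transcripts; versions and strand settings are not given in the sources used here. Each file deposited by the authors lists TPM for 35034 RefSeq transcripts. Rows were summed by symbol. Ratios used a pseudocount of 1 TPM, and genes above 3 TPM in at least 1 pool were compared. No test was possible with 1 library per group. Abundance classes were split at a mean of 100 TPM, and folds of 1.2 and 2 were counted. Named genes were all members, all other tubulins, and from each list the 3 highest plus any past 1.5-fold (none was). The fibroblast, endothelial, macrophage and dividing cell lists are given as sums only. The members and lists were chosen with earlier results of these data known.

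GENCODE M21 (GRCm38, the assembly of mm10) gave positions, GC content and sequences, matched by RefSeq identifier for 10 of 10 members and for 98.3% of the genes compared. Ends of these transcripts may differ from those the authors quantified. Some marker genes and sequences are not reported here. Scripts used pandas 2.3.3, numpy 2.4.6 and, for coding alignments, Biopython 1.88 (Python 3.11.15). Only the steps that sum rows and form ratios were tested on simulated data. Alternatives were pseudocounts of 0.1 and 0.5 TPM, rescaling by the median ratio (0.987), scaling to the neuronal list (0.946), the highest row per gene, filters of none and 10 TPM, and wider families. The GC comparison in bins of at least 20 genes and the marker counts under other scalings were added after seeing the data.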

Additional observations from a re-analysis of the deposited data

How the results depend on the processing

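No paired analysis was possible because each group has 1 library. Without replicates, a change was judged against the SD of the log2 ratio among genes of the same abundance class. By that measure the 10 log2 ratios moved by less than 1 SD under the alternatives that could change them. The highest row per gene could not, since each member has 1 row. The measure is too wide to show stability. The SD was 0.16 for genes with a mean of at least 100 TPM and 0.42 for the others. The factors of the 2 rescalings were -0.019 and -0.079 on the log2 scale, which could not reach either SD. A change of sign in a ratio under 1.2-fold did not by itself count as a move. The ratio of Tubb2b ranged from -0.45 to -0.37, that of Tubb4a from -0.40 to -0.24 and that of Tuba1a from -0.25 to -0.17. Relative to the neuronal list, Tuba4a (0.077) and Tubb2a (0.0069) were above 0, and after rescaling by the median ratio Tuba4a was. Relative to genes of like GC, 6 members were lower, 1 (Tubb2b) by at least 1.2-fold. By the same measure 5708 of 11422 genes were lower, 466 were at least 1.2-fold lower and 460 at least 1.2-fold higher.

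With all beta genes in the denominator, shares in the alum and alum + KLH pools were 34.3% and 36.0% for Tubb3, 18.2% and 19.4% for Tubb2a, 13.5% and 14.3% for Tubb5, and 13.0% and 10.7% for Tubb2b, and alpha over beta TPM was 2.11 and 2.01. Scaled to the neuronal list, 4018 of the genes then above 3 TPM in at least 1 pool were lower. Of these, 588 were lower by at least 1.2-fold, and 721 genes were at least 1.2-fold higher. With no filter and the values as deposited, these counts were 10984, 1670 and 784 of 24411 genes. Above 10 TPM, 471 were at least 1.2-fold lower and 163 higher, and 49 were at least 2-fold lower and 25 higher, where fewer genes were compared. The causes of the other shifts were not tested. The files give TPM without read counts, and counting error was not estimated here.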
